A study of Homo sapiens with 12 samples.

Results

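The 10 genes described here belong to the TGF-β signalling pathway and were followed through 4 groups of cancer cell line RNA. They are the receptor genes TGFBR1, TGFBR2, TGFBR3 and ACVR1, the signal transducers SMAD2, SMAD3 and SMAD4, and the feedback genes SMAD7, SKIL and PMEPA1. They were chosen by gene symbol, and all 10 were found once each among the 57500 gene rows of the count table. The study sequenced 12 libraries of total RNA from 3 established human lines, with 3 biological replicates per group. SW480 came from a primary colorectal cancer and SW620 from a metastasis in the same patient, and neither received a treatment. PEO4, an ovarian cancer line, was kept in its usual medium (control) or given 10 ng/mL of recombinant human TGF-β for 6 days. PEO4 grew in RPMI 1640 and the SW lines in DMEM, each with fetal bovine serum and antibiotics. Ribosomal RNA was depleted and DNA digested in library preparation. Each group rests on 1 line, so a difference between groups is one between these cultures. In bulk RNA, fewer cells expressing a gene and less of its RNA per cell cannot be told apart.

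TGF-β binds the type II receptor TGFBR2, which then activates the type I receptor TGFBR1. The active type I receptor phosphorylates SMAD2 and SMAD3, which join the common partner SMAD4 and enter the nucleus to regulate genes. SMAD7, SKIL and PMEPA1 are induced by this signal in many cell types and dampen it. TGFBR3 (betaglycan) presents the ligand to TGFBR2, and ACVR1 is a type I receptor used mainly by BMP ligands. Loss of SMAD4 is a well known event in colorectal and other digestive tract cancers.

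Library totals ranged from 14531420 to 22028956 counts, and a count of 0 would allow up to 3 counts, or 0.136 to 0.206 CPM, counting error only. The members stood far above that floor, with the lowest count being 37. Levels are CPM (counts scaled to a common library size) with TMM factors, a correction for library composition, over all 12 libraries. Lineage markers followed the labelled tissues: mean CPM of the intestinal factor CDX2 was 18.8 for SW480, 18.3 for SW620 and 0.0556 for untreated PEO4. For PAX8, a factor of the female reproductive tract, the means were 44.4, 45.8 and 556 CPM in the same order. The 5 epithelial markers were all present in every group. The fibroblast markers summed to 229 to 383 CPM in PEO4, nearly all from THY1, and to 3.17 to 17.4 CPM in the SW lines, with COL1A2 and DCN under 1 CPM in every library. The endothelial markers summed to 1.93 to 8.21 CPM and the immune markers to 0.155 to 5.90 CPM over the 12 libraries. SW620 replicate 3 stood apart: 82 genes with at least 20 CPM in PEO4 and a median of at most 0.3 CPM in the SW libraries reached 1.22% of their summed PEO4 level there, against 0.210% to 0.405% in the other 5 SW libraries. PEO4 control replicate 1 also stood apart, being the highest control for 195 of the 242 genes called higher with TGF-β (80.6%). Some of the results that these 2 libraries affect are given with and without them, and others only with them.

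The regulatory sequence of the 3 feedback genes is shown because they are the members whose transcription the pathway itself is known to drive. SMADs bind short GTCT-type cores, and the 5 letters GTCTG were searched on both strands, where the other strand reads as CAGAC, in the 250 bases before each RefSeq transcript start on GRCh38.p14. It was found before 2 of 3 SMAD7 starts, the 1 SKIL start and 2 of 4 PMEPA1 starts. Each stretch of 30 bases is written 5′ to 3′ on the gene's own strand, with the match in capitals.
SMAD7, chr18:48951165-48951194, minus strand, 217 bases before the start: gccggacgccccCAGACctctgaggttcga
SMAD7, chr18:48951076-48951105, minus strand, 128 bases before the same start: ttcttattttgcCAGACgtctcatgcgggg
SMAD7, chr18:48949509-48949538, minus strand, 193 bases before another start: actgctcctgcaGTCTGcggttaaaaatta
SKIL, chr3:170357596-170357625, plus strand, 107 bases before the start: gacggcggcggcGTCTGcgggaagctgtgt
PMEPA1, chr20:57710675-57710704, minus strand, 115 bases before a start: ccccttgggcagCAGACaatgggtgtggat
PMEPA1, chr20:57690740-57690769, minus strand, 71 bases before another start: caggctccacccCAGACttccggcaggtgg
These letters are common: 38.0% of all 35116 RefSeq windows of this length hold GTCTG on either strand. They also lay before some starts of TGFBR1, SMAD3 and ACVR1, which were not called in PEO4 with TGF-β. The longer palindrome GTCTAGAC stood in 0.182% of all windows and in 0 of the 30 windows of the 10 members, which says only that these letters are not in these windows. The stretches describe where such letters lie, and binding was not analysed here.

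In PEO4, the 6 days of TGF-β went with a higher level of PMEPA1, a membrane protein that binds SMAD2 and SMAD3 and limits their activation. PMEPA1 (ENSG00000124225, chromosome 20, 57648392 to 57711536 on GRCh38, GENCODE 29) stood at 187, 67.7 and 57.5 CPM in control replicates 1 to 3 and at 620, 492 and 466 CPM with TGF-β. The groups did not overlap, and control replicate 1 was the highest control by a wide margin. The fitted difference was 4.99-fold, a log2 fold change of 2.32 ± 0.38 (SE, n = 3; edgeR's quasi-likelihood test, adjusted p 0.0182). It was the 1 member of 10 to pass an adjusted p of 0.05, a rule passed by 2.26% of the 19064 genes tested in this comparison (1.27% higher, 0.991% lower). At an unadjusted p under 0.05 the members passing were 5, namely PMEPA1, SKIL, TGFBR3, ACVR1 and SMAD2, and 16.7% of all tested genes passed that mark. PMEPA1 lost its call without control replicate 2 (edgeR adjusted p 0.122), without TGF-β replicate 1 (0.0716) and without TGF-β replicate 2 (0.0682), and without control replicate 1 the log2 fold change was 3.04. The antisense gene NKILA covers 6.1% of the exon bases of PMEPA1, and reads there cannot be told apart without strand.

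SKIL, which encodes the SMAD corepressor SnoN, was higher in every treated library and narrowly missed the threshold. SKIL (ENSG00000136603, chromosome 3, 170357678 to 170396835) was at 388, 265 and 170 CPM in control replicates 1 to 3 and at 608, 652 and 513 CPM with TGF-β. All 3 treated libraries lay above all 3 controls, and control replicate 1 was again the highest control. The log2 fold change was 1.08 ± 0.24 (SE, n = 3; edgeR adjusted p 0.0546), and in the authors' deposited table the adjusted p for SKIL is 0.0239. Over the alternatives its adjusted p ran from 1.82e-11 to 0.246, and without control replicate 1 it was called (log2 fold change 1.40; edgeR adjusted p 0.00461).

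SMAD7, the inhibitory SMAD that blocks the type I receptor, did not pass. SMAD7 (ENSG00000101665, chromosome 18, 48919853 to 48952052) was at 44.0, 56.5 and 34.4 CPM in the controls and at 54.8, 68.5 and 49.4 CPM with TGF-β. The groups overlapped, with control replicate 2 above 2 of the 3 treated libraries. The log2 fold change was 0.32 ± 0.18 (SE, n = 3; edgeR adjusted p 0.432). Of 14 alternatives 1 called SMAD7, the fit with a block for the replicate number (0.34, edgeR adjusted p 0.0244). Whether these numbers pair the libraries is not settled.

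Control replicate 1 did not stand between the groups for every pathway gene. On the log2 scale, from the mean of the other controls to the mean of the treated libraries, it lay 51.8% of the way for PMEPA1 and 59.3% for SKIL. The distance was 31.1% for LTBP2, 33.5% for THBS1 and 20.6% for TGFBI, all 3 known TGF-β targets of the matrix. It was 0.43% for the cell cycle inhibitor CDKN1A and 3.97% for the actin-binding protein gene TAGLN, both called higher with TGF-β, and -1.24% for SMAD7. That library thus lay apart from the other controls for some of these genes and with them for others; the cause was not tested.

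None of the receptors or signal-transducing SMADs passed in PEO4. TGFBR1 was at 28.5, 25.0 and 25.8 CPM in the controls and at 22.1, 25.3 and 23.6 CPM with TGF-β, overlapping at control replicate 2. Its log2 fold change was -0.19 ± 0.09 (SE, n = 3; edgeR adjusted p 0.342). TGFBR2 was at 74.6, 45.4 and 43.1 CPM in the controls and at 76.3, 66.3 and 54.7 CPM with TGF-β. Control replicate 1 matched the treated libraries here, and the log2 fold change was 0.25 ± 0.20 (edgeR adjusted p 0.576) with it and 0.53 without it, with the call unchanged. TGFBR3 was low, at 7.15 to 8.75 CPM in the controls and 9.26 to 13.3 CPM with TGF-β, without overlap (log2 fold change 0.45 ± 0.18; edgeR adjusted p 0.256). ACVR1 was at 34.5 to 43.3 CPM and 42.3 to 49.5 CPM (0.25 ± 0.10; edgeR adjusted p 0.260).

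The 3 signal transducers did not pass either. SMAD2 lay at 284 to 308 CPM in the controls and 248 to 271 CPM with TGF-β, lower without overlap, at a log2 fold change of -0.20 ± 0.07 (SE, n = 3; edgeR adjusted p 0.232). SMAD3 lay at 95.0 to 145 CPM and 86.0 to 131 CPM (-0.13 ± 0.17; edgeR adjusted p 0.750). SMAD4 lay at 102 to 106 CPM and 93.2 to 103 CPM (-0.11 ± 0.07; edgeR adjusted p 0.458). In all, replicate values of 4 of the 10 members did not overlap between the PEO4 groups, 3 higher and 1 lower, where 20.0% of all tested genes did not (11.5% higher, 8.50% lower).

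**Figure D1:**
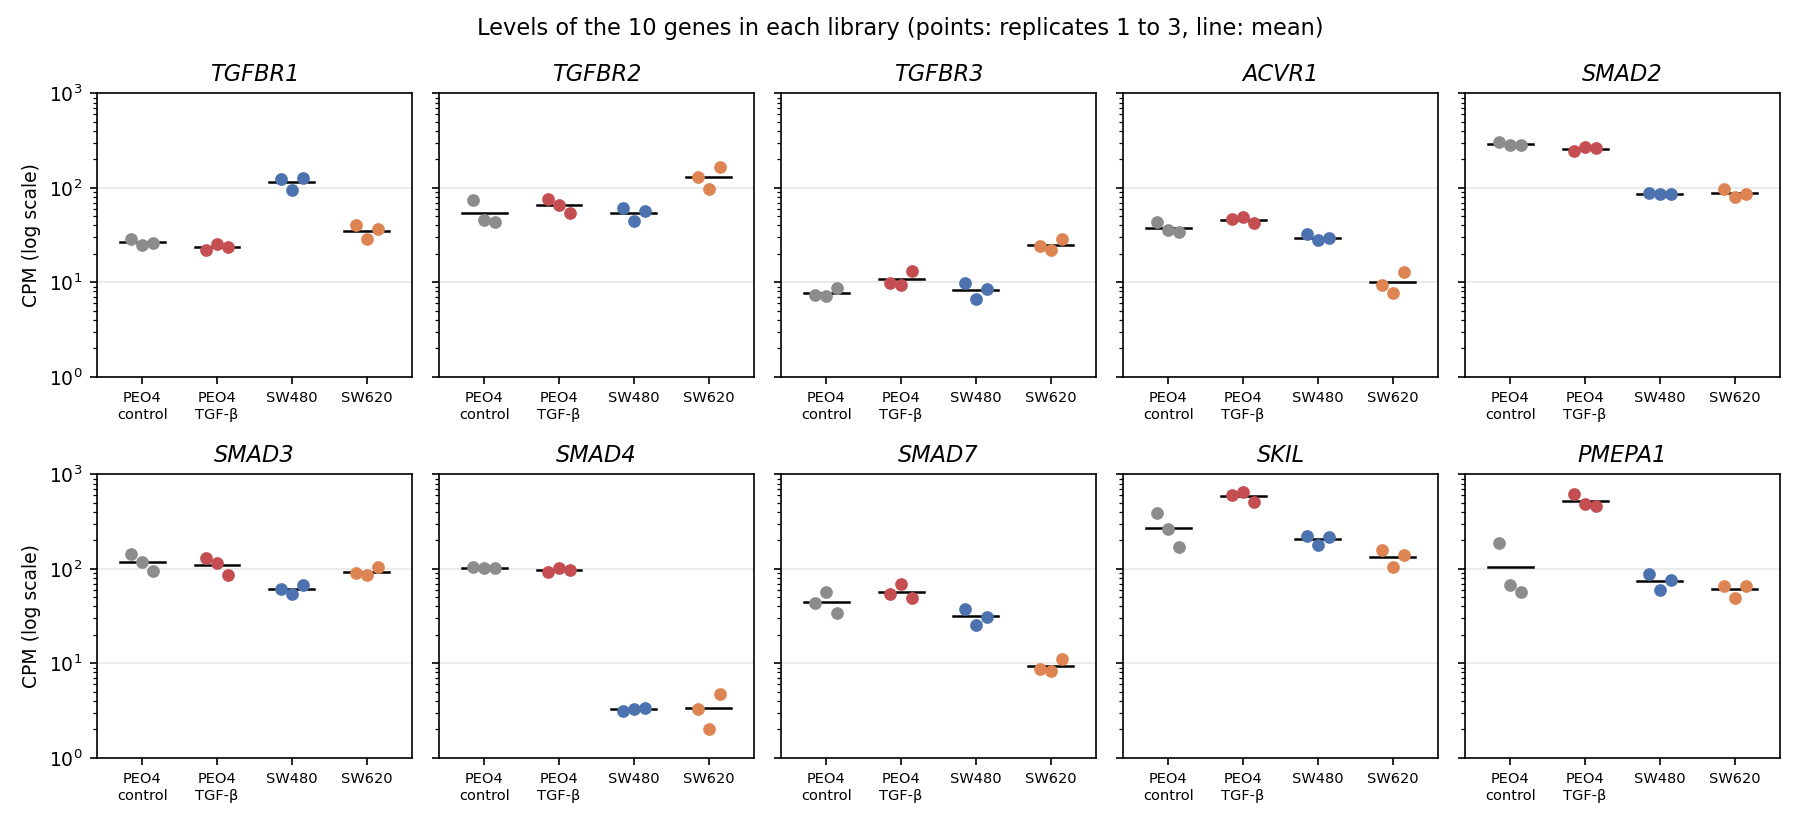
CPM (log axis) of each of the 10 genes in the 12 libraries, with points for replicates 1 to 3 from left to right and a line at the group mean. PMEPA1 separates PEO4 with TGF-β (466 to 620 CPM) from its controls (57.5 to 187 CPM), and SMAD4 separates both PEO4 groups from the SW lines, where it lies between 2.00 and 4.69 CPM.

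Between SW620 and SW480 all 4 receptor genes differed, TGFBR2 and TGFBR3 being higher and TGFBR1 and ACVR1 lower in SW620. By edgeR's adjusted p, 6 of the 10 members were called, 3 higher and 3 lower in SW620, where 30.5% of the 20941 tested genes were called (13.5% higher, 17.0% lower). Replicates of 7 members did not overlap between the lines, 3 higher and 4 lower, against 43.9% of all tested genes (19.9% higher, 24.0% lower). The median size of the members' differences was 0.96 on the log2 scale, regardless of sign, against 0.53 over all tested genes.

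TGFBR1 (ENSG00000106799, chromosome 9, 99104038 to 99154192) encodes the type I receptor of TGF-β. It stood at 125, 94.1 and 128 CPM in SW480 and at 40.0, 29.05 and 36.9 CPM in SW620, with no overlap. The level was 3.23-fold lower in SW620, a log2 fold change of -1.69 ± 0.19 (SE, n = 3; edgeR adjusted p 0.000217). TGFBR2 (ENSG00000163513, chromosome 3, 30606502 to 30694142) went the other way, from 60.9, 44.9 and 57.4 CPM in SW480 to 131, 96.4 and 165 CPM in SW620. Every SW620 library was above every SW480 library, by a fitted 2.43-fold (log2 fold change 1.28 ± 0.22; edgeR adjusted p 0.00232).

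The ratio of TGFBR2 to TGFBR1 lay on opposite sides of 1 in the SW lines. In CPM per kilobase of annotated exon, it was 0.707, 0.694 and 0.655 in SW480 replicates 1 to 3 and 4.76, 4.83 and 6.49 in SW620. The size of such a ratio depends on the annotated lengths, which can differ from those of the expressed transcripts. A difference in log2 ratio between groups does not depend on them. TGFBR1 exceeded TGFBR2 in all 3 SW480 libraries and in none of the other 9. The mean log2 ratio differed by 2.95 (exact permutation test, two-sided, p = 0.1, the smallest that 3 against 3 libraries can give). In PEO4 the ratio was 3.81, 2.64 and 2.43 in the controls and 5.03, 3.82 and 3.37 with TGF-β. Control replicate 1 overlapped the treated libraries, and the mean log2 ratio differed by 0.47 (exact permutation test, two-sided, p = 0.2, where 0.1 is the smallest possible). Without control replicate 1 the difference was 0.67.

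The co-receptor TGFBR3 (ENSG00000069702, chromosome 1, 91680343 to 91906335) was at 9.78, 6.68 and 8.55 CPM in SW480 and at 24.03, 21.8 and 28.7 CPM in SW620. No libraries overlapped, and the level was 3.02-fold higher in SW620 (log2 fold change 1.59 ± 0.20, SE, n = 3; edgeR adjusted p 0.000400). ACVR1 (ENSG00000115170, chromosome 2, 157736444 to 157875862) was at 32.4, 27.99 and 29.2 CPM in SW480 and at 9.46, 7.67 and 13.0 CPM in SW620. It was 2.93-fold lower in SW620, again without overlap (log2 fold change -1.55 ± 0.21; edgeR adjusted p 0.000633). The calls of the 4 receptor genes held in all 14 alternatives run on this comparison.

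**Figure D2:**
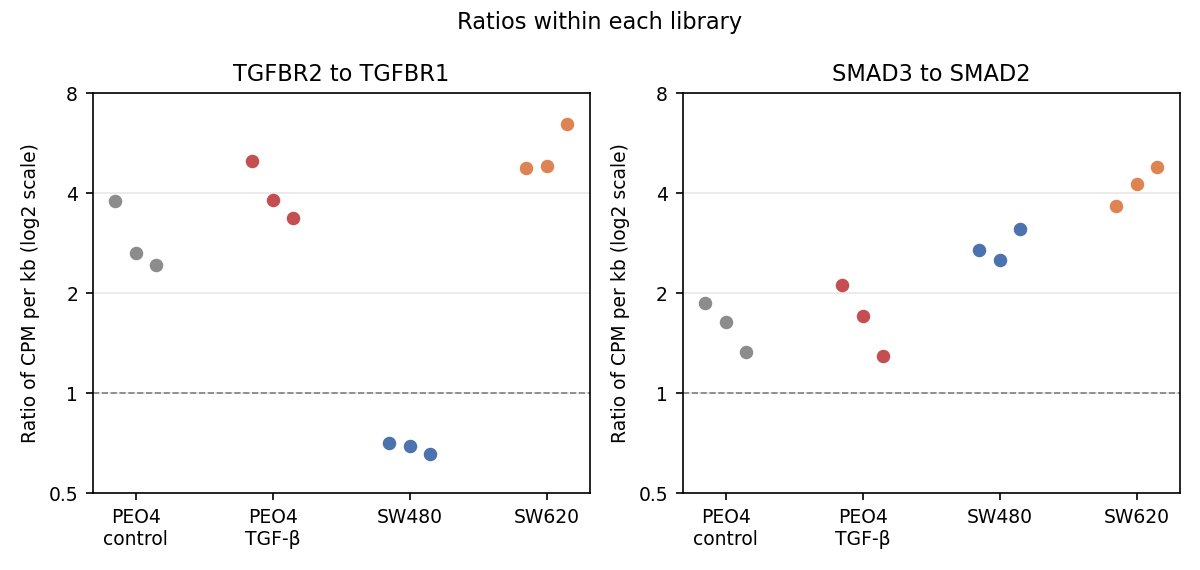
Ratio of CPM per kilobase of exon within each of the 12 libraries (log2 axis, points for replicates 1 to 3), for TGFBR2 to TGFBR1 and SMAD3 to SMAD2. The dashed line marks equal CPM per kilobase, which for SMAD2 rests on 36.37 kb of annotated exons. The 3 SW480 libraries are the ones below the line for the receptors, at 0.655 to 0.707, and SW620 lies between 4.76 and 6.49.

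Of the receptor-regulated SMADs, SMAD3 was higher in SW620 and SMAD2 showed no call. SMAD3 (ENSG00000166949, chromosome 15, 67063763 to 67195195) was at 60.6, 54.7 and 66.9 CPM in SW480 and at 89.6, 87.0 and 104 CPM in SW620, with no overlap. Its log2 fold change was 0.64 ± 0.16 (SE, n = 3; edgeR adjusted p 0.0133), and leaving out SW480 replicate 1, 2 or 3 in turn raised the adjusted p to 0.0706, 0.0611 and 0.0545. SMAD2 (ENSG00000175387, chromosome 18, 47808957 to 47931146) was at 85.6 to 89.2 CPM in SW480 and 81.1 to 97.6 CPM in SW620 (0.04 ± 0.15; edgeR adjusted p 0.867). The log2 ratio of SMAD3 to SMAD2 was higher in SW620 by 0.60, every SW620 library lying above every SW480 library (exact permutation test, two-sided, p = 0.1, the smallest possible). In PEO4 that ratio differed by 0.06 (exact permutation test, two-sided, p = 0.8).

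Of the feedback genes, SMAD7 alone was called between the SW lines. SMAD7 was at 37.8, 25.7 and 31.1 CPM in SW480 and at 8.77, 8.31 and 11.2 CPM in SW620. It was 3.30-fold lower in SW620 without overlap (log2 fold change -1.72 ± 0.20, SE, n = 3; edgeR adjusted p 0.000272). SKIL was at 221, 180 and 216 CPM in SW480 and at 160, 104 and 139 CPM in SW620. The libraries did not overlap, but the difference missed the threshold narrowly (-0.59 ± 0.20; edgeR adjusted p 0.0518), while the authors' deposited table gives SKIL an adjusted p of 0.0223. SKIL passed in 5 of the 14 alternatives, with adjusted p of 0.0258 in DESeq2, 0.0458 in limma-voom and, in edgeR, 0.0287 under total-count scaling, 0.0359 with at least 10 counts in every library and 0.000305 with the replicate block. PMEPA1 was at 59.3 to 88.3 CPM in SW480 and 49.8 to 66.2 CPM in SW620 and overlapped (-0.28 ± 0.20; edgeR adjusted p 0.335).

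SMAD4, the common partner of SMAD2 and SMAD3, was low in both SW lines. SMAD4 (ENSG00000141646, chromosome 18, 51028394 to 51085045) had 62, 56 and 65 counts in SW480 replicates 1 to 3, or 3.12, 3.28 and 3.35 CPM. SW620 had 68, 37 and 101 counts, or 3.31, 2.00 and 4.69 CPM. The SW620 libraries lay on both sides of the SW480 libraries, and the log2 fold change was 0.06 ± 0.35 (SE, n = 3; edgeR adjusted p 0.924). Without SW620 replicate 3 it was -0.27 (edgeR adjusted p 0.596). The share of PEO4 level seen for the 82 genes above, applied to SMAD4, equals 26.1% of its level in that library, against 7.34% to 12.4% in the other SW libraries. For the other 9 members the same calculation gave 0.394% to 5.80% of the level in that library. The part of these reads in the SMAD4 result was not tested. SMAD4 exons share 967 bases (7.37% of their length) with AC091551.1, a protein-coding gene annotated on the same strand, so the assignment of reads there is uncertain.

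PEO4 held far more SMAD4 than either SW line. The controls were at 106, 102 and 103 CPM and the treated libraries at 93.2, 103 and 97.1 CPM, and every one lay above every SW library. In the fit of PEO4 control, SW480 and SW620, SMAD4 was 31.5-fold lower in the mean of the SW lines (log2 fold change -4.98 ± 0.19, SE; n = 3 per group; edgeR adjusted p 1.32e-09). The value was between -5.15 and -4.71 in all 19 alternatives. Line, tissue of origin and medium differ together here and cannot be told apart. In this comparison 58.0% of the 22936 tested genes passed (29.1% higher, 28.9% lower), and 9 of the 10 members did, 3 higher and 6 lower in the SW lines. All tested genes split into 6678 called higher and 6626 called lower, and under total-count scaling into 8630 and 5176. By p SMAD4 had rank 93 of the 22936 genes.

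The other members differed less between PEO4 control and the SW lines. SMAD2 was 3.36-fold lower in the SW lines (log2 fold change -1.75 ± 0.12), SMAD7 2.63-fold lower (-1.39 ± 0.18) and ACVR1 2.21-fold lower (-1.14 ± 0.16; SE, n = 3 per group; edgeR adjusted p from 8.69e-08 to 5.92e-05). SKIL (-0.73 ± 0.22) and SMAD3 (-0.67 ± 0.15) were lower as well, and TGFBR1 (1.26 ± 0.16), TGFBR3 (0.88 ± 0.17) and TGFBR2 (0.62 ± 0.22) were higher. PMEPA1 was the member that did not pass (-0.64 ± 0.31; edgeR adjusted p 0.0921), and without PEO4 control replicate 1 its value was 0.08. It passed as lower in 4 of the 19 alternatives: without PEO4 control replicate 2 (-0.89; edgeR adjusted p 0.0422), without PEO4 control replicate 3 (-0.94; 0.0232), without the count filter (0.00121) and with the replicate block (0.0499). SKIL lost its call without that library (-0.41; edgeR adjusted p 0.148) and under total-count scaling (-0.44; edgeR adjusted p 0.0706). TGFBR2 lost its call without PEO4 control replicate 2 (edgeR adjusted p 0.138), PEO4 control replicate 3 (0.148) or SW480 replicate 1 (0.0617). Replicates of 4 members did not overlap between PEO4 control and the 6 SW libraries (TGFBR1 higher; ACVR1, SMAD2 and SMAD4 lower), where 44.0% of all tested genes did not (21.2% higher, 22.8% lower).

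Because the SW lines differ from each other, this mean hides which line carries a difference. Against PEO4 control, SW480 alone passed for 4 of the 10 members, where 53.6% of all tested genes passed, and SW620 alone for 7, where 55.2% did. TGFBR2 in SW480 was level with PEO4 control (log2 fold change -0.0064), and in SW620 it was higher (1.25; edgeR adjusted p 0.000900). TGFBR1 was higher in SW480 (2.12) and not called in SW620 (0.41; edgeR adjusted p 0.0612). SMAD7 was lower in SW620 (-2.27) and not called in SW480 (-0.52; edgeR adjusted p 0.0520). ACVR1 was likewise lower in SW620 (-1.93) and not called in SW480 (-0.36; edgeR adjusted p 0.133), and TGFBR3 was higher in SW620 (1.66) and not called in SW480 (0.093; edgeR adjusted p 0.714). SKIL passed in SW620 (-1.04; edgeR adjusted p 0.00526) and not in SW480 (-0.42; 0.196), and SMAD3 in SW480 (-0.98; 0.000476) and not in SW620 (-0.36; 0.0938). SMAD4 was low in each line alone, at -5.00 in SW480 and -4.95 in SW620. These contrasts share the PEO4 control libraries with each other and with the TGF-β comparison.

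**Figure D3:**
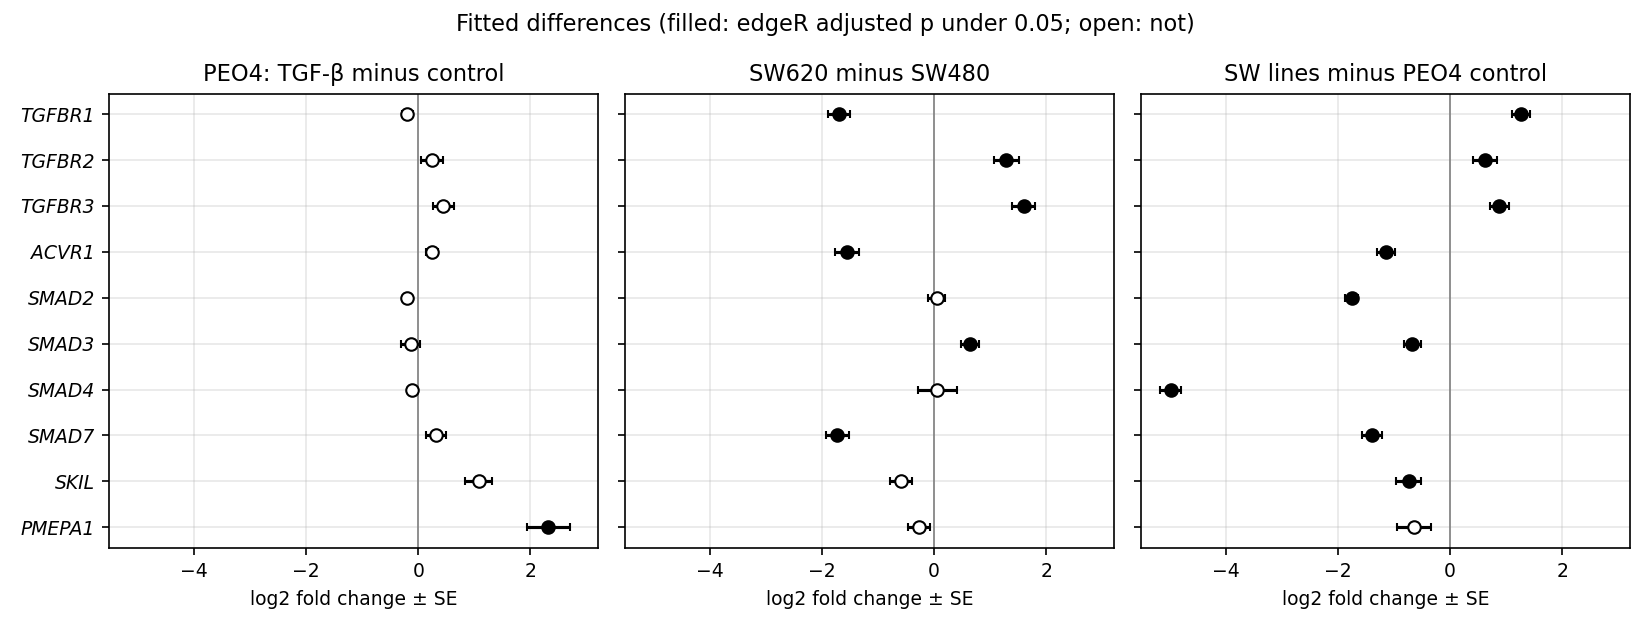
Fitted log2 fold change ± SE of the 10 genes in the 3 comparisons, filled where edgeR's adjusted p was under 0.05. SMAD4 lies at -4.98 in the SW lines against PEO4 control and near 0 in the other 2 comparisons, while TGFBR1 and TGFBR2 lie on opposite sides of 0 between SW620 and SW480.

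The position of SMAD4 was examined next, with its low level already known. Within 1 Mb of its start, 9 genes were tested, SMAD4 included, and all 9 passed as lower in the SW lines than in PEO4 control, against 28.9% of all tested genes. SMAD4 was the lowest, and the other 8 ran from -0.94 (SKA1) to -2.04 (CFAP53) on the log2 scale. The nearest by start were ELAC1 at -60.4 kb (8.38 CPM in PEO4 control, 2.64 CPM in SW480 and 2.33 CPM in SW620), ME2 at -149.7 kb and MEX3C at 189.9 kb. ELAC1 had a log2 fold change of -1.76 ± 0.22, ME2 of -1.29 ± 0.14 and MEX3C of -1.29 ± 0.20 (SE, n = 3 per group; edgeR adjusted p from 5.91e-06 to 0.000125). Over all 329 tested genes of chromosome 18, which also carries SMAD2 and SMAD7, the median log2 fold change was -0.79, against 0.08 over all tested genes, and 52.3% passed as lower. DNA copy number was not analysed here.

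**Figure D4:**
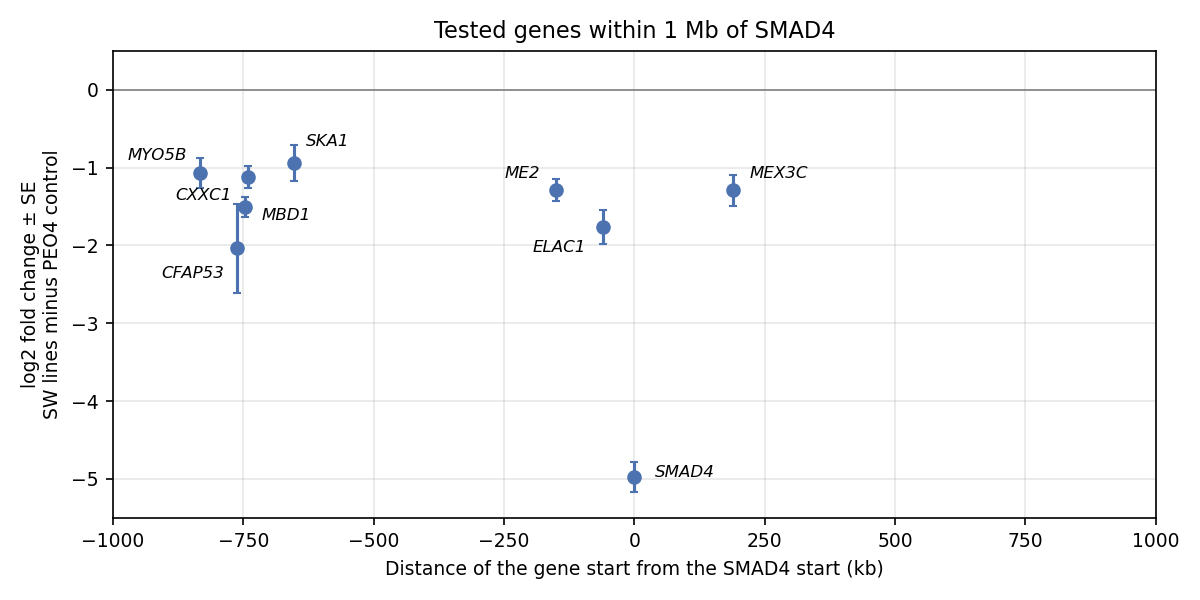
Log2 fold change ± SE of the SW lines minus PEO4 control for the 9 tested genes within 1 Mb of SMAD4, by the distance of each gene's start from the SMAD4 start in kb. The 8 neighbours lie between -0.94 and -2.04, and SMAD4 lies at -4.98.

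Per kilobase of exon, SKIL had the highest mean of the 10 genes in PEO4 control and PMEPA1 the highest with TGF-β. In PEO4 control SKIL was at 35.3 ± 14.0 and PMEPA1 at 18.5 ± 12.8 CPM per kb (SD, n = 3), and with TGF-β PMEPA1 reached 93.6 ± 14.6 and SKIL 75.9 ± 9.11. The replicates of these 2 genes overlapped in both PEO4 groups. The second place of PMEPA1 in PEO4 control rested on replicate 1 (33.3 CPM per kb, against 15.9 for SMAD3). SMAD3 was above it in replicate 2 (12.95 against 12.04) and replicate 3 (10.43 against 10.23). In SW480 SKIL (26.4 ± 2.86) was followed by TGFBR1 (16.9 ± 2.74) and PMEPA1 (13.3 ± 2.59), the latter 2 with overlapping replicates. In SW620 TGFBR2 (27.8 ± 7.25) had the highest mean, followed by SKIL (17.3 ± 3.67) with overlapping replicates. TGFBR3 was the lowest member in both PEO4 groups, at 0.893 ± 0.0990 in control, and SMAD4 the lowest in SW480 (0.248 ± 0.00874) and SW620 (0.254 ± 0.103). The level of SMAD2 per kilobase rests on annotated exons that add up to 36.37 kb, the longest of the members.

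Across the 12 libraries the genes with the most similar pattern were found by the root mean square difference of log2 CPM, each gene centred on its own mean. Nearest to SMAD4 among 14517 genes were AFAP1 (0.19), CRIP2 (0.25) and M1AP (0.31), all high in PEO4 and low in both SW lines. AFAP1, for example, had a mean of 619 CPM in PEO4 control and 19.6 CPM in SW480. Nearest to TGFBR1 were CEP78 (0.12), CTDSPL (0.13) and LRRC37A16P (0.14), and nearest to SMAD7 were ITGAV (0.21), ARSD (0.22) and SH2D4A (0.24). PMEPA1 was nearest to THBS1 (0.28), the gene of thrombospondin 1, with means of 126 CPM in the PEO4 controls and 687 CPM after treatment. SPOCD1 (0.48) and ARTN (0.49) followed at a larger distance.

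Of the pathway's other genes, few passed in PEO4 outside the targets and the BMP-side SMADs. Among 15 known target genes, 13 were tested and 5 passed, all higher with TGF-β, with a median log2 fold change of 1.10 against -0.02 over all tested genes, of which 2.26% passed. The 5 were LTBP2 (2.74), THBS1 (2.43), TGFBI (2.33), TAGLN (1.34) and CDKN1A (0.99). The count of targets was 9 without control replicate 1. Of the 4 other SMADs, 2 passed, both lower: the inhibitory SMAD6 went from 82.5 ± 15.2 to 37.8 ± 5.602 CPM (log2 fold change -1.16) and the BMP-activated SMAD9 from 7.41 ± 1.40 to 2.44 ± 0.362 CPM (-1.64; SD, n = 3). Both lost their calls without control replicate 2 (edgeR adjusted p 0.0612 for SMAD6 and 0.0622 for SMAD9). SMAD1 (-0.09) and SMAD5 (-0.03), which also serve BMP receptors, did not pass.

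The ligand TGFB2 passed as higher in treated PEO4, from 3 to 6 counts per control library to 26 to 41 with TGF-β (log2 fold change 2.61; edgeR adjusted p 0.0146), and 3 of its 13 alternatives lost the call. TGFB1 (0.07) and TGFB3 (-0.55) did not pass. Of 8 tested other receptors and of 20 regulators such as the ubiquitin ligases SMURF1 and SMURF2, 0 passed in edgeR's test, DESeq2 or limma-voom. At an unadjusted p under 0.05 edgeR gave 1 and 4, near the 16.7% of all tested genes that passed that mark.

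Between SW620 and SW480 the ligand TGFB2 differed most, from 13.3 ± 2.95 CPM in SW480 to 0.398 ± 0.0309 CPM in SW620 (SD, n = 3; log2 fold change -5.02; edgeR adjusted p 7.91e-06). TGFB1 and TGFB3 did not pass. Of the other SMADs, SMAD6 was higher in SW620 (3.05) and SMAD5 lower (-1.48). Of 8 tested other receptors 3 passed, with BMPR1A higher (0.90) and BMPR2 (-1.20) and ACVR1B (-0.59; edgeR adjusted p 0.0470) lower. ACVR1B lost its call in 7 of its 14 alternatives, 4 of them leaving out 1 library (SW480 replicate 1 or 3, SW620 replicate 1 or 2). Of 20 regulators 7 passed, 4 higher and 3 lower, among them the endocytic adaptor DAB2 (2.54) and SMURF2 (-1.74), a ubiquitin ligase that works with SMAD7. Of 15 targets 10 passed, 8 lower and 2 higher in SW620: LTBP2 (-4.26), CDKN1A (-4.07) and COL1A1 (-1.44) were lower, and TAGLN (1.05) and TGFBI (0.95) were higher. These counts of receptors and regulators lie near the 30.5% of all tested genes called here. TAGLN lost its call without SW480 replicate 1, SW480 replicate 3 or SW620 replicate 1, and TGFBI without SW480 replicate 2 or 3 or SW620 replicate 1 or 3. The count of regulators was 3 without SW480 replicate 3 and 4 without SW620 replicate 1. The count of targets was 5 without SW480 replicate 1 or SW480 replicate 3 and 4 without SW620 replicate 1.

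Against PEO4 control, the SW lines held more of the ligands TGFB1 (log2 fold change 1.31) and TGFB2 (3.02) and less TGFB3 (-0.95), and all 3 passed. For TGFB2, SW480 alone gave 5.54 and SW620 alone 0.50 with an edgeR adjusted p of 0.364. Of 15 targets 12 passed, 5 higher and 7 lower in the SW lines, where 58.0% of all tested genes passed. CDKN2B, a cell cycle inhibitor, went from 0.140 CPM in PEO4 control to 30.2 CPM in SW480 and 24.1 CPM in SW620. CTGF, the matricellular gene also named CCN2, was lower, from 636 to 32.0 and 14.5 CPM, and so was JUNB, from 650 to 85.5 and 117 CPM. Of 20 regulators 12 passed, 4 higher and 8 lower, with the pseudoreceptor BAMBI higher (3.24) and the ubiquitin ligase WWP1 lower (-1.51). Of 8 tested other receptors 4 passed, among them the co-receptor endoglin (ENG, -3.16), and of the 4 other SMADs 3 passed, SMAD1 higher (0.77) and SMAD6 (-2.14) and SMAD9 (-1.66) lower. The counts of regulators and receptors lie near that 58.0%. For SMAD6 the mean of the SW lines hides unlike levels, with 82.5 CPM in PEO4 control, 6.59 CPM in SW480 and 53.6 CPM in SW620.

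**Figure D5:**
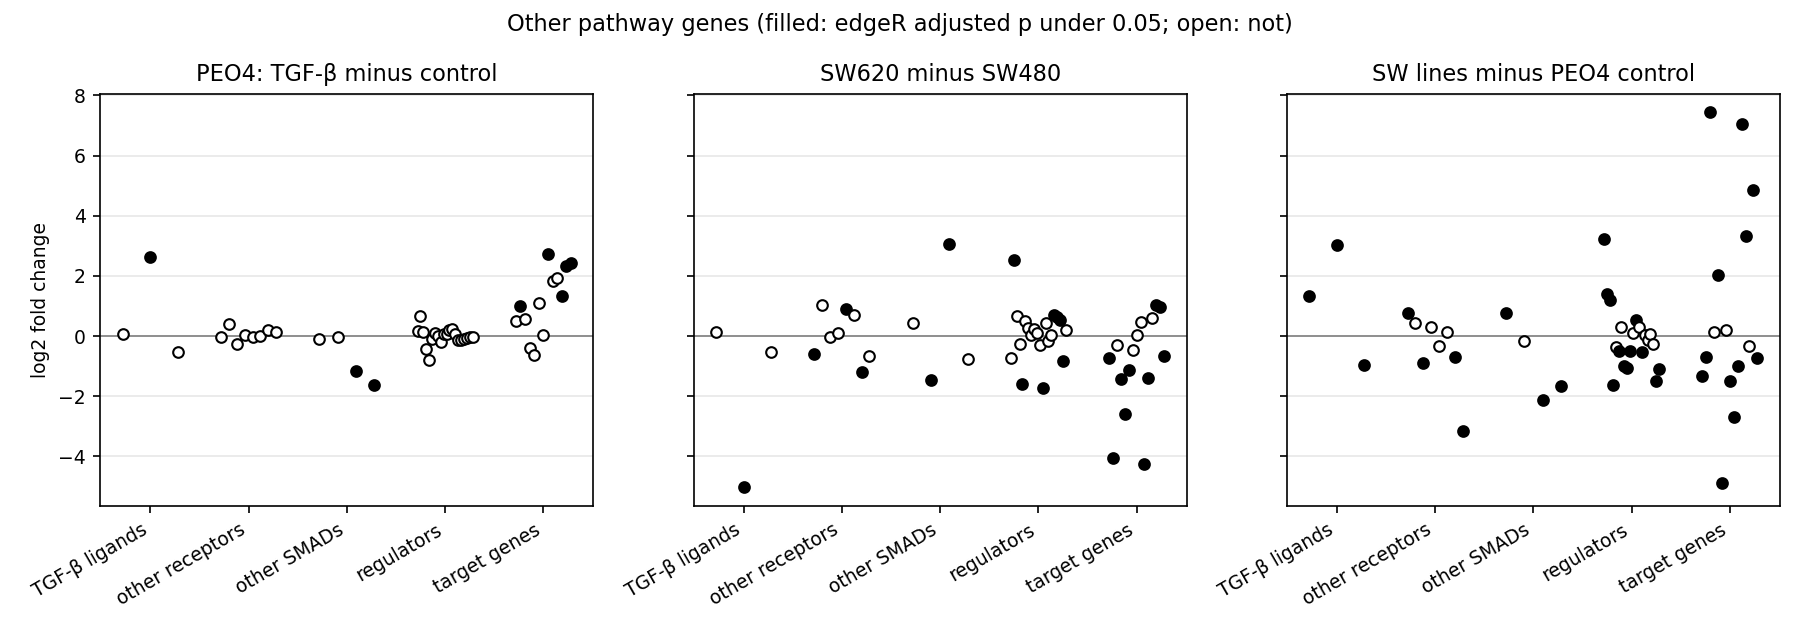
Log2 fold change of each tested gene of the 5 other pathway lists in the 3 comparisons, 1 point per gene, filled where edgeR's adjusted p was under 0.05. In PEO4 the filled points are TGFB2 (2.61), SMAD6 and SMAD9 below 0 and 5 target genes above 0.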

How the data were processed

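The authors deposited whole-number counts per gene for 57500 Ensembl gene IDs in 12 libraries. Per the submitters' processing notes, GRCh38, Trimmomatic 0.36, STAR 2.5.2b, Subread 1.5.2 with featureCounts, and DESeq2 were used. Their roles, the annotation and the strand setting are not given in the sources used here, so reads in exons shared with antisense genes (PMEPA1 with NKILA, SMAD3 with AC087482.1) cannot be told apart. Ribosomal RNA was depleted before sequencing, per the labels' protocols. The authors' deposited tables give a log2 fold change and a p-value with its adjusted value, quoted for SKIL only.

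Each comparison was fitted on its own groups (6, 6 and 9 libraries) with edgeR 4.0.16 in R 4.3.3: filterByExpr, TMM factors, quasi-likelihood test (two-sided), Benjamini-Hochberg adjustment over all genes tested, threshold 0.05. The SE is the log2 fold change over the square root of F. Exon lengths and positions come from GENCODE 29, which holds 56898 of the IDs and can differ from the annotation behind the counts. All p-values measure the spread between replicate cultures of 1 line. The fits were tested on simulated data, in which 100 genes changed 2-fold and 100 changed 4-fold in each comparison. There they called 55% of true 2-fold changes in PEO4, 23% between the SW lines and 54% against PEO4 control. For true 4-fold changes the shares were 83%, 62% and 79%. Far fewer genes changed there than were called between the SW lines (30.5%) or against PEO4 control (58.0%). Because the adjustment depends on how many genes differ, the simulated shares do not carry over to those 2 comparisons. A gene that did not pass can still differ.

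The members, lists and tests were chosen with earlier results of these data known. Named genes are all members, up to 3 genes per list and direction with the smallest p, and the 3 nearest patterns of 4 members. Genes named outside that rule, chosen after their values were seen, are THBS1 and TGFBI in PEO4, ELAC1 and the other neighbours of SMAD4, and genes that did not pass. The values of 1 target gene that the rule names are not reported here. Alternatives were DESeq2 1.42.0, limma-voom (limma 3.58.1), RLE and total-count scaling, no count filter, at least 10 counts in every library, 1 model over the 12 libraries, a block for the replicate number, each SW line alone, and leaving out each library.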

Additional observations from a re-analysis of the deposited data

How the results depend on the processing

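Of the 10 members, the number called in PEO4 (1) was 2 under DESeq2, limma-voom, total-count scaling and no count filter, 3 with the replicate block, and 0 to 2 without single libraries. With SW480 alone against PEO4 control it was 4 in place of 9, between the SW lines (6) it was 7 under DESeq2, limma-voom, total-count scaling, the minimum of 10 counts and the replicate block, and without single libraries it ran from 5 to 6 for the SW lines and from 8 to 9 against PEO4 control. The number of all genes called in PEO4 (431) was 967 under DESeq2, 1457 without the filter, 165 with all 12 libraries, 2102 with the replicate block, and 72 (without control replicate 2) to 1080 (without control replicate 1) without single libraries. For SW620 against SW480 (6385) it was 10667 with the replicate block and 4253 to 7419 without single libraries. Deviations of same-numbered libraries correlated across genes at 0.27, -0.15 and 0.45 in PEO4 and 0.00, 0.63 and 0.51 in the SW lines. Some libraries correlated best with their own number and others did not. These values do not settle whether the numbers pair the libraries, and the main fits used no pairing. With the block SKIL and SMAD7 were called in PEO4 (edgeR adjusted p 9.05e-05 and 0.0244), SKIL in the SW lines (0.000305) and PMEPA1 against PEO4 control (0.0499). Total-count scaling moved the median of all genes against PEO4 control by 0.28 on the log2 scale and the split from 6678 higher and 6626 lower to 8630 and 5176.

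Signs turned for values that were not called: SMAD3 in PEO4 was 0.023 without control replicate 1 and 0.016 without TGF-β replicate 3 (range -0.28 to 0.023), SMAD4 between the SW lines was -0.0014 under limma-voom and -0.27 without SW620 replicate 3 (range -0.27 to 0.37), and PMEPA1 against PEO4 control was 0.082 without control replicate 1 (range -0.94 to 0.082). TGFBR2, called against PEO4 control, was -0.0064 with SW480 alone. The log2 ratio of SMAD3 to SMAD2 in PEO4 ran from -0.11 to 0.25 without single libraries and was -0.069 without control replicate 3. The cause was not tested. SMAD4 in the SW lines rests on 37 to 101 counts, and TGFB2 in the PEO4 controls on 3 to 6.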
